A study of Rattus norvegicus with 9 samples.

Results

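A small array of the rat heart held 87 rows, and 6 of them (R134, R220, A042, R242, R135 and A016) are described here. They were selected on the log2 differences between heat-stressed and unstressed hearts: each was listed lower after stress in all 4 states in which stress was given, mostly by less than 2-fold. These differences are therefore a description and were not tested. The left ventricle was sampled, RNA was pooled within each group, and each of the 9 groups is 1 sample of the series, with 3 pools and 6 animals stated in the labels. No replicate values were given, so no value below has an error of its own, and a spread over states is not an error.

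The untreated control received no heat. Heat-stressed rats that were not acclimated spent 2 h at 41 °C and then recovered for 1 h at 24 °C. Acclimated rats lived at 34 °C, either for 2 d or for 1 mo. Deacclimated rats had 1 mo at 34 °C and then 1 mo at 24 °C, and reacclimated rats were returned from there to 34 °C for 2 d. The 2 d acclimated, the 1 mo acclimated and the reacclimated states were each also examined after the same heat stress. Strain, age and sex are not in the labels used here.

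Acute heat unfolds proteins, and cells answer through heat shock transcription factor 1, which raises chaperone genes while the transcription of many other genes is reduced. Heat acclimation is slower: the heart of an acclimated rodent beats with better energy economy and holds larger chaperone reserves, and these adaptations are lost in a temperate climate and return quickly on renewed heat. The files pair no row name with a gene, and 0 of the 87 matched the RefSeq rat gene table, so the rows have no gene names or roles here, no cell type markers could be looked up, and 0 rows had a sequence to show. In bulk tissue, fewer cells of a type and less RNA per cell cannot be told apart.

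A pair of deposited tables held the rows. The first gives log2 ratios to the control, and there the control was taken as 0. The second gives linear intensities of radioactive hybridisation, with no normalization stated. Intensity differences below are log2 values after each sample was centred on its median, and they are called scaled. The median intensity of a sample lay between 1064 in 2 d acclimated, stressed rats, where 14 rows were not above 0, and 4962 in 2 d acclimated rats. In the heat-stressed sample 11 rows were empty and the lowest listed intensity was 1511. Whether a lower limit was applied there was not tested. The number of arrays limits the precision.

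R134 was listed in unstressed rats at 0.00 in the control, at -0.67 after 2 d acclimation, at -0.06 after 1 mo, at -0.64 after deacclimation and at 0.52 after reacclimation. After heat stress its log2 ratios were -0.62 without acclimation, -1.85 after 2 d, -0.67 after 1 mo and -0.56 after reacclimation. All 4 stressed groups were below the control, and the lowest level was that of 2 d acclimated, stressed rats. The stressed minus unstressed differences of R134 were -0.62, -1.18, -0.61 and -1.08 in the same order of states, with a mean of -0.87 and an SD over the 4 states of 0.30. By intensity R134 went from 3135 to 2987 without acclimation, from 526.3 to 24.1 after 2 d, from 1852 to 1331 after 1 mo and from 2100 to 2616 after reacclimation. It was dim in both 2 d acclimated groups, and its higher raw intensity in reacclimated, stressed hearts became a difference of -0.05 once scaled. R134 was the 1 row of the 6 that was lower in scaled intensity in all 4 states, as were 11.9% of the rows with all intensities above 0, although 2 of these differences were close to 0 (-0.03 without acclimation and -0.05 after reacclimation).

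R220 was listed above the control in every unstressed group, at 0.73 after 2 d acclimation, 0.49 after 1 mo, 0.28 after deacclimation and 0.94 after reacclimation. After heat stress it stood at -0.40 without acclimation, at -0.44 after 2 d, at -0.55 after 1 mo and at 0.23 after reacclimation. Reacclimated, stressed hearts were thus the 1 stressed group in which R220 stayed above the control. Its differences on stress were -0.40, -1.17, -1.04 and -0.71, with a mean of -0.83 and an SD over states of 0.35. The intensities of R220 were 1252 and 3310 without acclimation, 5587 and 402.3 after 2 d, 2457 and 1021 after 1 mo, and 2586 and 2155 after reacclimation, unstressed before stressed. Intensity therefore had the opposite direction in rats that were not acclimated (1.45 scaled) and the same direction in the other 3 states. The control intensity of R220, 1252, lies below the lowest value listed in the heat-stressed sample, 1511, where 11 rows were empty. R220 was at 3310 in that sample, and whether a lower limit bears on its direction was not tested.

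A042 was listed at -0.51 after 2 d acclimation, at 0.17 after 1 mo, at -0.20 after deacclimation and at -0.94 after reacclimation. After stress it stood at -0.45 without acclimation, at -1.09 after 2 d, at -1.31 after 1 mo and at -1.77 after reacclimation, below the control in all 4. Its differences were -0.45, -0.59, -1.47 and -0.83 (mean -0.84, SD over states 0.45). The control value of A042 was given as -3.32 rather than 0, which no other of the 6 rows showed. With -3.32 subtracted, the difference without acclimation turned to 2.87 and the mean over states to -0.0053, so the direction of A042 in that state rests on taking the control as 0. The other 3 differences do not use the control, whereas each level of A042 against the control takes it as 0. Intensities of A042 were 1566 and 2108 without acclimation, 1079 and 1738 after 2 d, 2539 and 1359 after 1 mo, and 980.8 and 590.7 after reacclimation. Scaled, they were higher after stress without acclimation (0.47) and after 2 d (2.28), and lower after 1 mo (-0.92) and reacclimation (-1.10).

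R242 had the widest range of the 6 rows. It was listed at 0.33 after 2 d acclimation, -0.61 after 1 mo, -0.72 after deacclimation and 0.84 after reacclimation. With stress it was at -0.66 without acclimation, -1.93 after 2 d, -2.44 after 1 mo and 0.73 after reacclimation. Both first-time acclimated groups were lowest after stress, whereas reacclimated hearts kept R242 above the control with and without stress. The differences were -0.66, -2.26, -1.82 and -0.11, with a mean of -1.21 and an SD over states of 1.00. Expressed as folds, R242 was 4.79-fold lower after 2 d, 3.54-fold lower after 1 mo and 1.08-fold lower after reacclimation. Its intensity was 2041 against 1870 without acclimation, 6356 against -13.3 after 2 d, 4046 against 701.4 after 1 mo and 4032 against 6103 after reacclimation. The value below 0 gives no log ratio, so the size of the 2 d difference is uncertain, and the scaled intensity after reacclimation had the opposite sign (0.23).

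R135 was listed close to the control after 2 d acclimation (0.08) and 1 mo (0.06), and above it after deacclimation (1.07) and reacclimation (0.86). The stressed groups were at -0.96 without acclimation, -0.36 after 2 d, -0.79 after 1 mo and 0.59 after reacclimation. Its differences were -0.96, -0.44, -0.84 and -0.27 (mean -0.63, SD over states 0.33). As listed, R135 thus differed most in rats with no heat history and least after reacclimation. With each group centred on its median ratio, the differences were -0.90, 0.04, -0.73 and -0.16, so that the least was after 2 d. Intensities were 3729 and 2657 without acclimation, 5570 and 1614 after 2 d, 4672 and 5791 after 1 mo, and 7082 and 7893 after reacclimation. Scaled intensity was lower in 3 states and higher after 1 mo (0.30).

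A016 had the smallest mean difference and the smallest SD over states of the 6 rows. Its differences were -0.37 without acclimation, -0.68 after 2 d, -0.37 after 1 mo and -0.80 after reacclimation (mean -0.55, SD over states 0.22). Unstressed, it was listed at 0.39 after 2 d acclimation, -0.43 after 1 mo, -0.72 after deacclimation and -0.01 after reacclimation. Stressed, it was at -0.37, -0.29, -0.80 and -0.81 in the same order of states, always below the control. The intensities of A016 were 4429 and 2184 without acclimation, 7776 and 3045 after 2 d, 3575 and 5200 after 1 mo, and 3950 and 810.9 after reacclimation. Scaled, the row was lower without acclimation (-0.98) and after reacclimation (-2.65), and higher after 2 d (0.24) and 1 mo (0.53).

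**Figure D1:**
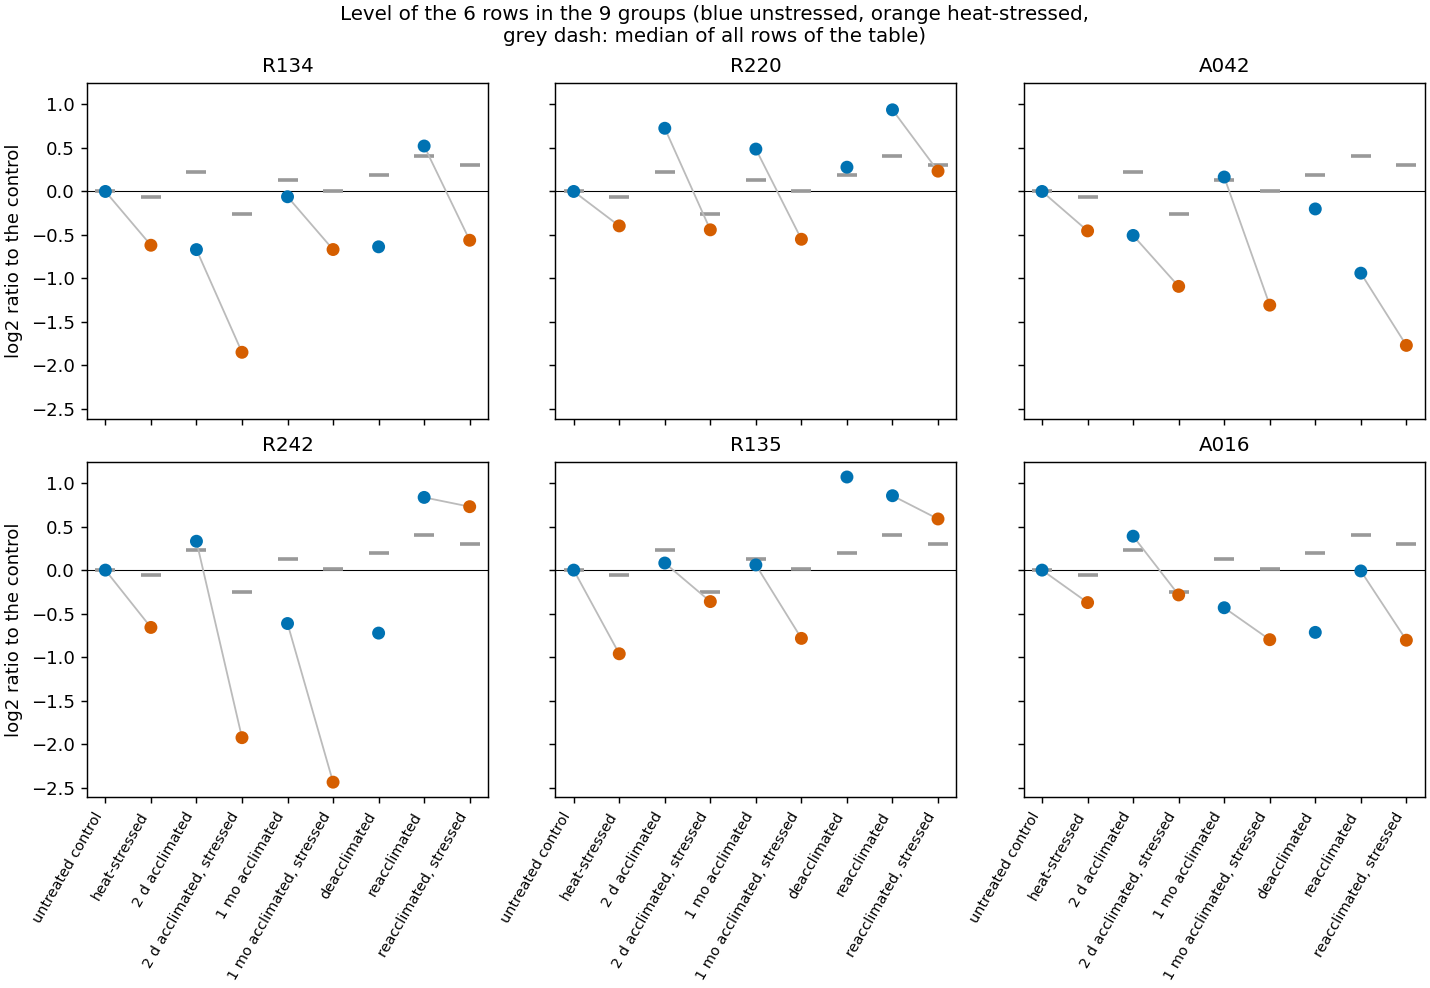
Log2 ratio to the control (vertical axis) of each of the 6 rows in the 9 groups (horizontal axis). Blue points are unstressed groups, orange points are heat-stressed groups, a line joins each stressed group to its own unstressed group, and grey dashes mark the median of the 87 rows; every line slopes down, as the rows were chosen to do, and after reacclimation R220, R242 and R135 end above 0.

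The sizes were then compared between states. Over the 24 differences (6 rows in 4 states), 7 reached 2-fold and 17 did not, and no row reached 2-fold in more than 2 states. Over all 87 rows 18.4% of the differences were at least 2-fold lower, and as the rule used this contrast nothing is read from that comparison. Without acclimation 0 of the 6 rows reached 2-fold, against 10.3% of all rows. After 2 d acclimation the rows that did were R134, R220 and R242, against 33.3% of all rows. After 1 mo they were R220, A042 and R242, against 19.5%, and after reacclimation R134 alone, against 10.3%.

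The median of the 6 differences was -0.54 without acclimation, -0.92 after 2 d, -0.94 after 1 mo and -0.75 after reacclimation. The median of the 87 rows was also below 0 in each state, at -0.06, -0.39, -0.19 and -0.18, and the share of all rows that were lower on stress was 55.2%, 64.4%, 55.2% and 64.4%. Relative to the table's median the 6 rows lay at -0.48, -0.53, -0.75 and -0.57. Measured this way the 2 d state, which had the second lowest median as listed, lay between the states without acclimation and after reacclimation. The 1 mo state lay furthest from the table. With each group centred on its own median instead, the medians of the 6 were -0.48, -0.44, -0.82 and -0.64. The 2 d state then had the smallest size. In the 2 d state the stressed sample was also the dimmest of the 9, and the part of this in the sizes listed there was not tested.

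No order of states was shared by the 6 rows. As listed, the difference was furthest below 0 after 2 d acclimation for R134, R220 and R242 and after 1 mo for A042. It was so without acclimation for R135 and after reacclimation for A016. With each group centred on its median, the lowest difference of R134 was instead after reacclimation (-0.98) and that of R220 after 1 mo (-0.92). R242 ranked among the lowest of all 87 rows in 2 states, with rank 2 from the bottom after 2 d and rank 5 after 1 mo, yet rank 49 after reacclimation. R134 and R135 ranked from 9 to 25 and from 10 to 43 over the states, and A016 from 14 to 39.

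Centring each group on the median of its 87 log2 ratios, which removes a shift common to a sample, made the differences smaller in every state. Of the 24 differences 22 stayed below 0 (50.9% of the differences of all rows were), and 3 were at least 2-fold lower, namely A042 after 1 mo (-1.36) and R242 after 2 d (-1.77) and 1 mo (-1.71), against 11.5% of the differences of all rows. The remaining pair turned to about 0 or above it, R242 after reacclimation (0.0016) and R135 after 2 d acclimation (0.04). R134, R220, A042 and A016 were thus lower in all 4 states both as listed and centred. Of all 87 rows 17.2% were lower in all 4 states as listed and 11.5% after centring.

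**Figure D2:**
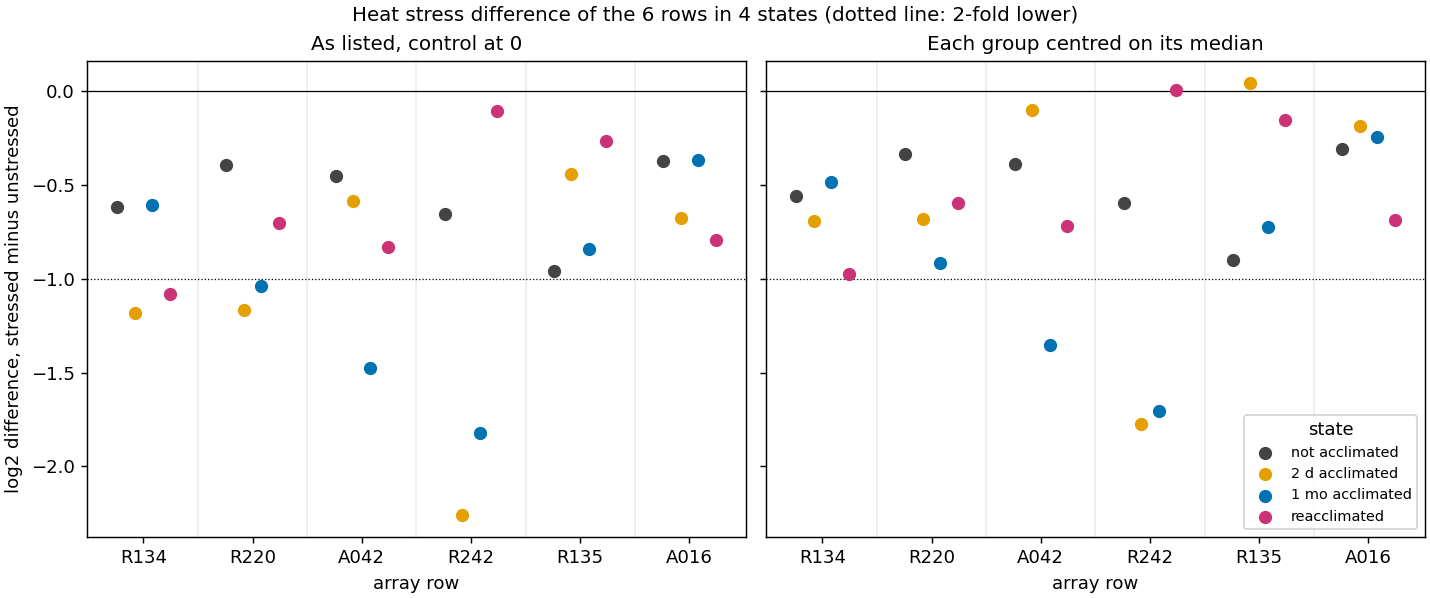
Log2 difference of stressed minus unstressed hearts (vertical axis) for the 6 rows (horizontal axis), coloured by state, as listed on the left and after centring each group on its median on the right. The dotted line marks 2-fold lower; 7 of 24 points lie below it as listed and 3 after centring, and 2 points are then at or above 0.

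Stress did not bring the rows to one common level. The 6 rows had a median log2 ratio of -0.54 in heat-stressed rats, -0.77 in 2 d acclimated, stressed rats, -0.79 in 1 mo acclimated, stressed rats and -0.16 in reacclimated, stressed rats. With the control at 0, all 6 were below it in the first 3 of these groups, and 3 (R134, A042 and A016) in the last. For heat-stressed rats that were not acclimated, being below the control is part of the rule that chose the rows. The rule also favours low stressed values in the other groups, so nothing is read from these counts. Of all 87 rows, 48, 54, 43 and 39 were below the control in the same order of groups. With its listed control value of -3.32 subtracted, A042 would be above the control in each of these stressed groups. In reacclimated hearts R220, R242 and R135 started above the control, at 0.94, 0.84 and 0.86, and were listed at 0.23, 0.73 and 0.59 after stress. The median of all rows was also highest in both reacclimated groups, 0.41 unstressed and 0.30 stressed, and after centring R220 stood slightly below the median in the stressed one, as its 0.23 is less than 0.30.

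The deacclimated group is the 1 group the rule did not use, although its ratios share the control with the rest. Against the control R135 was listed 2.10-fold higher (1.07), R220 at 0.28, A042 at -0.20, R134 at -0.64, A016 at -0.72 and R242 at -0.72. With the control at 0, R135 was the only one of the 6 to reach 2-fold in either direction. Of all rows, 20.7% were higher and 5.75% lower by that size. The median of the 6 was -0.42, where that of the 87 rows was 0.19. With the control at 0, 2 of the 6 were above it, against 58.6% of all rows. Subtracting the listed A042 control value of -3.32 would put A042 above the control too, by more than 2-fold. The median of the 6 was then -0.18. Scaled intensity placed 2 rows above the control (R242 at 0.32 and R135 at 0.09), against 37.8% of rows with an intensity in both. A016 was lowest by scaled intensity (-1.26). For R135 the scaled difference was thus far smaller than listed, but before scaling its intensity was 6333 against 3729, so the size by intensity depends on the scaling. The deacclimated intensities of the other 5 rows were 2831 (R134), 1977 (R220), 1591 (A042), 4050 (R242) and 2943 (A016).

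Set against the 1 mo acclimated state that came before it, which uses no control value, deacclimated hearts had R135 higher by 1.01 and the other 5 rows between -0.58 (R134) and -0.11 (R242). By scaled intensity R134 was higher by 0.17, and 4 rows were between -1.11 (A042) and -0.44 (R242). For R135 the scaled difference was 0.00, as its intensity, 4672 before and 6333 after, moved by just the shift that scaling removes. That 0.00 is therefore not read against the listed 1.01. Over all rows 56.3% were higher, 9.2% by at least 2-fold, and 8.05% were lower by that size. After 2 d of renewed heat R242 was higher by 1.56 and R134 by 1.16 than in deacclimated hearts, both over 2-fold, as were 13.8% of all rows. R220 (0.66) and A016 (0.71) were higher by less, R135 was at -0.22 and A042 at -0.74, so that 4 of the 6 were higher, against 58.6% of all rows. By scaled intensity the same step was 0.25 for R242, -0.18 for R134, 0.64 for R220, 0.68 for A016, 0.41 for R135 and -0.45 for A042, so R134 and R135 had opposite signs in the tables. The control, the 1 mo acclimated and the reacclimated samples are each also the unstressed side of 1 of the 4 differences that chose the rows. This favours rows that are high in them, and so lower values in deacclimated hearts than in these samples.

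With the control at 0, the unstressed shift from it was below 2-fold for all 6 rows after 2 d, 1 mo and reacclimation. After 2 d acclimation it went from -0.67 for R134 to 0.73 for R220. After 1 mo it went from -0.61 for R242 to 0.49 for R220. After reacclimation it went from -0.94 for A042 to 0.94 for R220. With the listed control value of -3.32 subtracted, A042 would be over 2-fold higher in each of these groups. Of all rows, 12.6%, 11.5% and 27.6% were at least 2-fold higher in these groups, and 6.9%, 2.3% and 10.3% were at least 2-fold lower. After centring, A042 was over 2-fold lower after reacclimation (-1.35). Scaled intensity gave larger shifts for some rows, with R134 at -3.46, A042 at -1.42 and R220 at 1.27 after 2 d, and A042 at -1.10 after reacclimation. With the control at 0, R220 was the highest of the 6 in each group. The lowest was then R134 after 2 d, R242 after 1 mo and A042 after reacclimation.

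Whether intensity had the listed direction was examined for all rows and for the 6. Both tables gave a heat stress difference for 23 of the 24, and 16 of these had the same sign. Over all rows 218 of 310 differences (70.3%) had the same sign, and among differences listed as lower it was 122 of 188 (64.9%). The 6 rows were therefore near the background in this respect. By state, 4 of 6 had the same sign without acclimation, 3 of 5 after 2 d, 4 of 6 after 1 mo and 5 of 6 after reacclimation, where the table gave 57.9%, 68.2%, 80.5% and 72.8%.

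Brightness was described by the median intensity of each row over the 9 samples, with the rows split into 4 bins of 21 or 22 rows. A042 (1566) lay in the dimmest bin, R134 (2100) and R220 (2155) in the second, and A016 (3575), R242 (4032) and R135 (5570) in the third, with 0 of the 6 in the brightest. In the table the share with the same sign was 63.3% in the dimmest bin, 68.8% and 69.9% in the middle ones and 77.0% in the brightest. In the 6 rows it was 2 of 4, 7 of 8 and 7 of 11 from the dimmest bin to the third. The brightest of the 6, R135, had the same sign in 3 of 4 states, no more often than the dimmer R220.

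The size of the listed difference separated the differences more than brightness did. Over all rows 61.9% of differences below 0.5 in size had the same sign in both tables, 73.4% of those from 0.5 to 1 and 84.2% of those of 1 or more. In the 6 rows the counts were 3 of 7, 7 of 10 and 6 of 6. The 7 differences with opposite signs were R220 without acclimation, A042 without acclimation and after 2 d, R242 after reacclimation, R135 after 1 mo, and A016 after 2 d and 1 mo, all below 2-fold in the ratio table. Differences of the same row or sample are not independent, so these shares carry no interval.

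**Figure D3:**
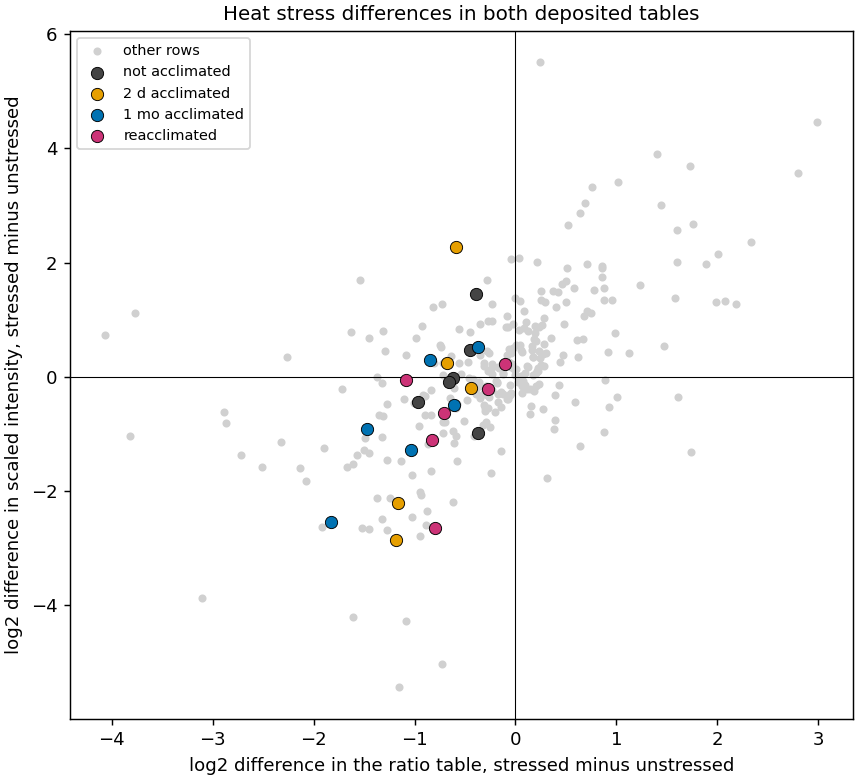
Heat stress difference in the ratio table (horizontal axis, log2) against that in scaled intensity (vertical axis, log2), with 1 point per row and state. Grey points are the other rows and coloured points are the 6 rows by state; 16 of the 23 coloured points lie below 0 on both axes and 7 lie above 0 by intensity.

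**Figure D4:**
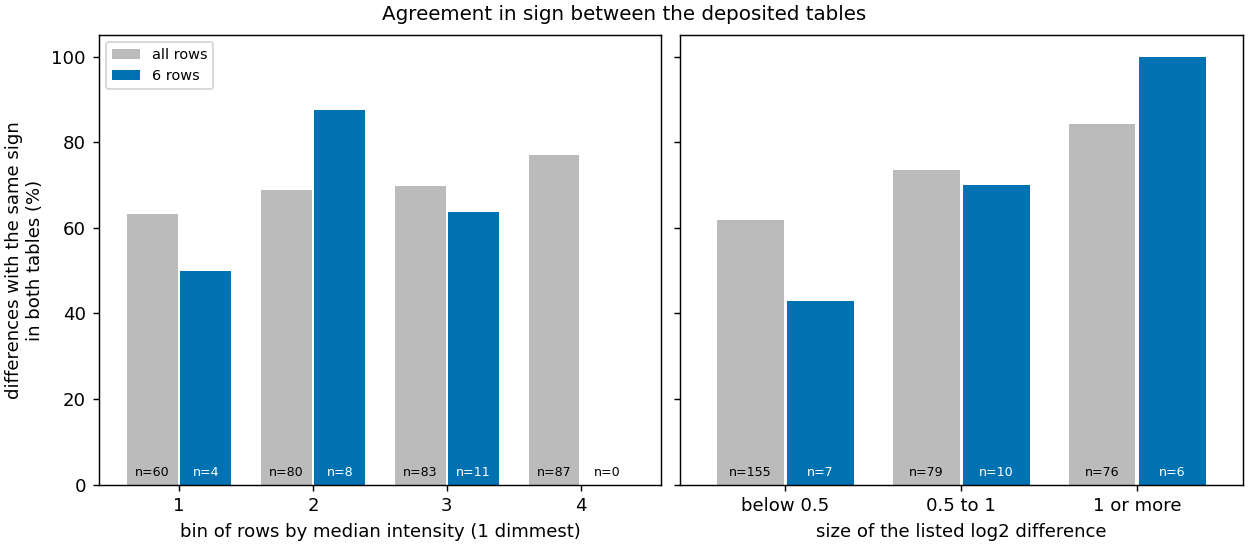
Share of heat stress differences with the same sign in both tables (vertical axis, %), by bin of median row intensity on the left and by size of the listed log2 difference on the right. Grey bars are all 87 rows and blue bars are the 6 rows, n counts differences; the grey share goes from 61.9% to 84.2% with size and from 63.3% to 77.0% with brightness, and 0 of the 6 rows are in the brightest bin.

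The 6 rows are not all rows that were lower in every state. The table held 15, and the other 9 were R040 (mean difference -1.63), A017 (-1.59), 14R (-1.39), R240 (-0.85), R546 (-0.76), R637 (-0.58), R158 (-0.57), A048 (-0.42) and A053 (-0.29). Of these 9, 7 reached 2-fold in at most 2 states, as each of the 6 did. The smallest difference that kept one of the 6 rows inside the rule was that of R242 after reacclimation (-0.11), and for R135 it was -0.27. Just outside were R594, at 0.05 without acclimation, S145R, at 0.06 after reacclimation, and R172, at 0.06 after 2 d acclimation, each lower in the other 3 states. With the listed control subtracted, A042 and R158 left the group and 13 rows remained lower in all 4 states.

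Rows whose pattern was most like the mean of the 6 were ranked by Pearson's r over the 8 treated groups, which share the control and include the groups that chose the rows. They were A014 (0.879), R058 (0.846), R546 (0.843), R158 (0.810) and R105 (0.803). A014 and R058 were higher on stress without acclimation (0.71 and 0.88) and lower in the other 3 states, and R105 was lower after 2 d and 1 mo only. Only R546 and R158 of the 5 were lower in all 4 states. R158 and R105 have control values of -3.32 and -6.64, which do not enter this measure.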

How the data were processed

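Left ventricular RNA of 9 groups was prepared with Tri-Reagent in 3 pools per group, labelled with a radioactive nucleotide and hybridised by a Clontech protocol, per the labels' protocols. Per the labels, the deposited log2 values compare the geometric mean of each treatment with that of the control after normalization. The deposited intensity values are linear, with no scaling stated in the sources used here. Those sources also leave out how the ratios were normalized, the image software and the choice of the 87 rows.

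Rows were taken by name. The control was set to 0, and each unstressed group was subtracted from its own stressed group. Centring used the median of the 87 ratios. Intensities above 0 were put on the log2 scale and centred on the median of the 59 rows above 0 in all samples. A difference of 2-fold or more was counted. With 1 sample per group and rows chosen on these differences, no test was run, and depth does not apply to arrays, whose number limits the precision. The members, lists and alternatives were chosen with earlier results of these data known. Rows other than the 6 were named by a rule: those lower in all states, the 3 just outside, and the 5 most alike. Alternatives were centring, the listed control, intensities scaled or not, leaving out the dimmest 25% of rows or a state, and a 1.5-fold limit. The counting code was run on simulated data in which chosen rows were lowered by a fixed amount beyond 2-fold. That difference had no noise, so the run says nothing about small differences. The tools were pandas 2.3.3 and numpy 2.4.6 under Python 3.11.15, with matplotlib 3.10.9 for plots.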

Additional observations from a re-analysis of the deposited data

Results flagged for a closer look

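Scaled intensity moved at least 2-fold upward on heat stress in 1 state and at least 2-fold downward in another for R220 and A042, while the ratio table listed both as lower throughout. Such moves were not particular to them. Without acclimation R158 (1.27), R594 (1.33) and A014 (1.15) were higher. R158 (-2.78) and R594 (-2.19) were lower after 2 d, and A014 (-3.87) after 1 mo. How many of all rows moved so was not counted. R220 was higher without acclimation (1.45) and lower after 2 d acclimation (-2.20). The lowest intensity listed in the heat-stressed sample, 1511, is above the control's 1252 for R220. R220 itself was at 3310 there, and whether a lower limit bears on this direction was not tested. A042 was higher after 2 d acclimation (2.28) and lower after reacclimation (-1.10). Unscaled, these differences of A042 were 0.69 and -0.73, neither of them 2-fold. With 1 sample per group these differences between states were not tested.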

How the results depend on the processing

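No paired analysis was possible because each group is 1 sample, and no replicate could be left out, so each state was left out in turn. A value was taken as moved if it shifted by more than the SD over the 6 rows or, for a row's mean, over the 4 states, and a count if by more than 1.5 times. The count of the 6 rows lower in all 4 states was 4 after centring, 5 with the listed control, and 1 by scaled and 0 by unscaled intensity. Leaving out the dimmest 25% of rows removes A042 itself, so the 5 left are fixed by the choice of rows. The count over the table was 15 of 87. By intensity it was 7 scaled and 2 unscaled, but of only 59 rows with all values above 0, so these are different row sets. It was between 19 and 24 with 1 state left out (24 without the rats that were not acclimated). The 7 differences of at least 2-fold became 3 after centring, 17 at the 1.5-fold limit, and between 4 and 7 with 1 state left out, with 4 both without the 2 d and without the 1 mo state. The share of all rows at the 1.5-fold limit was not counted, and as the rule used this contrast nothing is read from the 17. Leaving out a state also leaves fewer differences to count. By scaled intensity the median of the 6 rows was -0.054 without acclimation and, over 5 rows as R242 has no log value there, -0.19 after 2 d. The medians of all rows with a value on this scale were 0.34 and 0.11. Relative to these, the medians of the described rows lay at -0.39 and -0.30. By unscaled intensity the median of the 6 rows was -0.10 without acclimation, -1.79 after 2 d (again 5 rows) and -0.053 after reacclimation. The deacclimated median of -0.42 reversed to 0.34 by unscaled intensity. Of the 12 row means after centring or by scaled intensity 11 were below 0. The exception was A042 by scaled intensity (0.19). The centred means come from the differences that chose the rows, so nothing is read from their sign. For R242 the scaled mean covers 3 states. Leaving out a state keeps the 6 rows and their means below 0 by construction, and the listed control alters A042 only. For values other than counts with fewer rows or states, the cause was not tested. Values near or below 0 in intensity limit what the second table can show for dim samples.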
